A study of Mus musculus with 12 samples.

Results

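FoxO-deficient LSK cells of mouse bone marrow were compared with wild-type LSK cells on 6 of the 12 arrays of the series, 3 for each genotype, taken by their titles alone. LSK cells lack lineage markers and carry Sca-1 and c-Kit, a sort that holds the haematopoietic stem cells together with the multipotent progenitors. All mice were homozygous for loxP-flanked FoxO1, FoxO3 and FoxO4 alleles. Mice of the deficient group also carried the Mx-Cre transgene (Mx-Cre+), and those called wild type did not (Mx-Cre-). The wild-type cells therefore had floxed FoxO genes and no Cre, and a Cre-positive group without floxed alleles was not analysed here. Mx-Cre is driven by the interferon-inducible Mx1 promoter, which is active in many tissues and not in blood cells alone. How it was induced, the strain and the age of the mice are not given in the sources used here. Cells were sorted from pooled mice, and the RNA was amplified, biotin-labelled in triplicate and hybridised to Affymetrix Mouse Genome 430 2.0 arrays. Whether the triplicates came from separate pools of mice is unstated, and if they did not, the p-values reflect technical spread alone. The other 6 arrays held myeloid progenitors, the c-Kit-positive cells downstream of LSK cells, of the same genotypes.

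FoxO proteins are forkhead transcription factors that the kinase Akt phosphorylates, and so removes from the nucleus, when insulin or growth factors activate PI3K. In the nucleus they bind a short DNA motif and act on genes of growth arrest, cell death, metabolism and antioxidant defence. In blood they are known for keeping stem cells quiescent and protected from oxidative damage. According to the series' design text, the study asked how loss of the 3 FoxO genes changed the expression of genes of reactive oxygen metabolism.

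Values are probe set intensities on a linear scale after quantile normalization, with the offset of 0.6 that was added before log2. Per gene they come from the brightest of its probe sets that passed a filter on low values, which left 13732 genes. A change is FoxO-deficient minus wild type on the log2 scale, ± the standard error from limma, fitted over all 12 arrays with 3 per group. A gene was called at a Benjamini-Hochberg adjusted p under 0.05 over all genes tested. An array's background limit is the highest of its 27 control probe sets for Bacillus genes, 5.14 to 10.7 on the LSK arrays. Wild-type arrays are numbered 1, 2 and 3, and deficient arrays 4, 5 and 6, as their titles number them.

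Wild-type array 2 stood apart. Its Gapdh 3′ to 5′ probe set ratio was 344, against 1.77 to 2.37 on the other 11 arrays, and its Actb ratio was 145, against 2.74 to 3.36. Its log2 values correlated with those of arrays 1 and 3 at Pearson's r of 0.846 and 0.852 across genes. Arrays 1 and 3 correlated at 0.941, and the deficient arrays among themselves at 0.943 to 0.947. Calls and list medians are therefore given with and without array 2. The mean intensity before normalization was 119 to 164 on the LSK arrays, and their number limits the precision. Kit, the gene of the sort marker c-Kit, was above the background limit on all 6 arrays. So were Cd34, Flt3, Ptprc, Slamf1, Cd48 and Procr, which are not among the markers that define the sort above. Kit read 509.7, 161 and 439.6 on the wild-type and 426, 459 and 467 on the deficient arrays. Of the lineage markers that the sort removes, Cd3e was above the limit on 2 of the 6 arrays, Cd4 on 3, Cd8a on 1, Ms4a1 on 1, Itgam on 3 and Il7r on 2. Ly6a, the gene of the sort marker Sca-1, was not analysed here. The array's Cre probe sets report a spiked-in control and not the transgene.

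Loss of FoxO changed few genes past the test, and among them were lower levels of Tek, the stem cell receptor Tie2, of the lysophospholipase gene Gdpd3 and of the chemokine receptor gene Ccr2. Higher were some genes of basophil, eosinophil and neutrophil granules, the kinase gene Sik1, the lamin gene Lmna and the transcript paired with Mir1931. In all, 17 genes rose and 20 fell, which is 0.269% of the genes tested, 0.124% upward and 0.146% downward. Without array 2, 124 genes were called (0.903%), of which 69 rose (0.502%) and 55 fell (0.401%). The 2 sets shared 34 genes, and all 37 kept their direction without array 2. Fitted on the 6 LSK arrays alone, limma called 0 genes, with 892 at an unadjusted p under 0.05, so each call below rests on the spread pooled over both cell types. Leaving out array 1 or array 3 gave 28 or 26 calls, and leaving out any of arrays 4 to 12 gave 10 to 23. Of the 37 genes, 8 passed whichever array was left out, namely B3galt6, Ccr2, Foxo4, Gdpd3, Mcpt8, Mir1931, Sik1 and Xcl1.

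For all 37 called genes the 3 deficient arrays lay wholly above or wholly below the 3 wild-type arrays, as they did for 16.8% of all genes tested. Array 2 was the highest or the lowest of the wild-type arrays for 28 of the 37. For 19 of them it lay farther from the deficient arrays than arrays 1 and 3 did. A bulk sample cannot tell fewer cells of a type from less RNA per cell. The plot of the called genes by array shows the spread within each genotype.

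**Figure D1:**
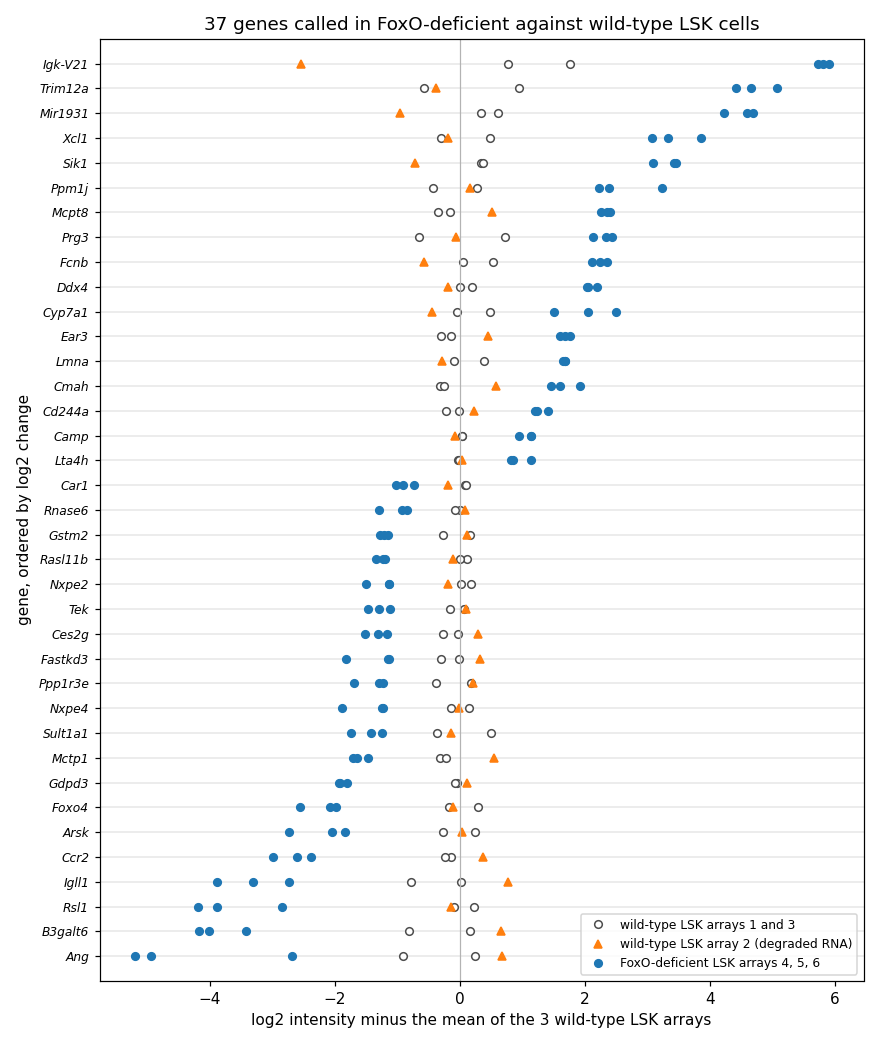
Each row is 1 of the 37 called genes, and each point is 1 LSK array, as its log2 intensity minus the mean of the 3 wild-type arrays. Open circles are wild-type arrays 1 and 3, triangles wild-type array 2 and filled circles the deficient arrays; genotypes do not overlap in any row, and array 2 lies far from arrays 1 and 3 for Igk-V21.

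The targeted genes themselves were measured first. Foxo4 read 347, 366 and 479 on the wild-type arrays and 67.2, 93.8 and 100.2 on the deficient arrays. The deficient arrays were all low and did not overlap the wild type, with a change of -2.20 ± 0.19 (limma adjusted p = 0.00162) and of -2.24 ± 0.19 without array 2. Foxo1 read 53.8, 265 and 79.5 on the wild-type arrays and 27.1, 39.2 and 18.9 on the deficient arrays, a change of -1.94 ± 0.58, and of -1.27 ± 0.46 without array 2, that was not called in either fit (limma adjusted p = 0.263 and 0.233). A further Foxo1 probe set read 64.1, 91.7 and 67.2 against 36.4, 26.9 and 31.5. The remaining pair, both dim, read 10.3, 13.4 and 11.3 against 10.1, 5.04 and 8.19 and 9.49, 7.93 and 9.05 against 13.4, 13.9 and 13.1. Of the 4 Foxo1 probe sets, 3 were thus lower and the last higher on every deficient array. Foxo3 was not lower, and its brightest probe set read 2479.8, 2108 and 2715 on the wild-type arrays and 3011, 2672 and 2812 on the deficient arrays. The labels do not say which exons were floxed, so a probe set outside them checks nothing.

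Among the genes that fell, Tek encodes Tie2, the angiopoietin receptor of stem cells and endothelium. It read 417, 499 and 487 on the wild-type arrays and 189.8, 169 and 216 on the deficient arrays. The fall was 2.45-fold, a log2 change of -1.29 ± 0.17 (limma adjusted p = 0.0184) and -1.24 ± 0.15 without array 2. Gdpd3 encodes a glycerophosphodiester phosphodiesterase that acts on lysophospholipids. It read 1973, 2201 and 1914 on the wild-type arrays and 536, 579 and 530.3 on the deficient arrays. Every deficient array was low, with a change of -1.89 ± 0.14 (limma adjusted p = 9.36e-04) and of -1.80 without array 2, and little spread within either genotype.

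Ccr2, the receptor for monocyte chemoattractant protein 1, read 61.2, 87.5 and 57.2 on the wild-type arrays and 8.50, 11.1 and 13 on the deficient arrays. Its fall was 6.29-fold (-2.65 ± 0.21, limma adjusted p = 9.36e-04, and -2.48 without array 2), and the deficient values lay close to the background limits. Of its 3 other probe sets, all dim, the first changed by -1.76 and the remaining pair by 0.16 and 0.17. Igll1, the lambda5 chain of the surrogate light chain of B cell precursors, read 9.13, 26.8 and 15.98 on the wild-type arrays and 1.06, 2.36 and 1.60 on the deficient arrays. It was above the limit on all 3 wild-type and on none of the deficient arrays, so its fall was at least 2.29-fold. Its further probe set changed by 0.53, so the pair disagreed in direction.

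Several genes of metabolic enzymes fell. B3galt6, a galactosyltransferase of the glycosaminoglycan linker, read 208, 294 and 106 on the wild-type arrays and 10.4, 17.5 and 11.6 on the deficient arrays, a 14.5-fold fall. A dimmer kept B3galt6 probe set changed by -0.77 without overlap and was not called. The remaining kept probe set, dimmer still, overlapped and changed by -0.55. The size of the B3galt6 fall is therefore that of the probe set used. Arsk, an arylsulfatase, read 138, 119 and 95.9 on the wild-type arrays and 28.2, 32.7 and 17.5 on the deficient arrays, and the carboxylesterase gene Ces2g read 192, 239 and 162 on the wild-type arrays and 86.98, 78.5 and 68.1 on the deficient arrays. By the probe sets used, no array of either genotype crossed into the other's range for B3galt6, Arsk and Ces2g. Their changes were -3.86, -2.20 and -1.33 in that order, and -3.55, -2.19 and -1.19 without array 2. Arsk's other kept probe set, also above background on every LSK array, overlapped between genotypes. It changed by -0.55, and by 0.07 without array 2, so the Arsk fall is that of the probe set used. Gstm2, a glutathione S-transferase of the mu class, read 40.8, 39.5 and 30.2 on the wild-type arrays and 16.5, 15.8 and 15.1 on the deficient arrays. Sult1a1, a phenol sulfotransferase, read 72.97, 47.3 and 40.5 on the wild-type arrays and 21.9, 19.3 and 15.5 on the deficient arrays. Both were lower on every deficient array, with changes of -1.21 ± 0.17 and -1.47 ± 0.24, and of -1.16 and -1.54 without array 2. Car1, the carbonic anhydrase of early red cells, read 184, 154 and 187 on the wild-type arrays and 92.8, 85.6 and 105 on the deficient arrays, a 1.85-fold fall (-0.89, and -0.98 without array 2). Ppp1r3e, a subunit that directs protein phosphatase 1 to glycogen, read 21.9, 32.8 and 32.2 on the wild-type arrays and 11.7, 12.2 and 8.84 on the deficient arrays, and its other probe set changed by -3.31.

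A pair of ribonuclease genes that lie near each other on chromosome 14 also fell. Rnase6 read 205, 217 and 195 on the wild-type arrays and 115, 109 and 83.7 on the deficient arrays, a change of -1.02 ± 0.16, and of -0.98 without array 2. Ang, which encodes angiogenin, read 51.8, 70.1 and 23.4 on the wild-type arrays and 1.44, 6.81 and 1.20 on the deficient arrays, and because 1 deficient array was above its background limit no fold is given. A further kept Ang probe set, which was dim, changed by -1.70 without overlap and was not called. The remaining one, also dim, overlapped and changed by -0.75, so the call is that of the probe set used. Rsl1, a KRAB zinc finger repressor of sex-limited liver genes, read 119.8, 115 and 149 on the wild-type arrays and 17.8, 8.66 and 6.98 on the deficient arrays. The deficient arrays differed among themselves on the log2 scale by more than the wild-type arrays here, and the change was -3.63 ± 0.43, and -3.72 without array 2. Its probe set, like those of Ear3 and Igll1, carries the suffix that marks possible cross-hybridisation to related genes.

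Fewer roles are settled for the remaining genes that fell. Nxpe2 read 27.3, 23.6 and 30.4 against 9.48, 12.3 and 12.4 and its neighbour Nxpe4 33.4, 36.4 and 40.9 against 9.97, 15.7 and 15.5, wild type against deficient, both without overlap. Rasl11b, a Ras-like small GTPase gene, read 174, 150.5 and 161 against 70.7, 63.99 and 69.3. The calcium-binding membrane protein gene Mctp1 read 64.8, 119 and 69.4 against 24.9, 29.2 and 26.01, with array 2 the highest. Fastkd3, a mitochondrial RNA-binding protein gene, read 111, 171 and 135 against 61.4, 62.6 and 38.7, and its adjusted p of 0.0499 (limma) was the largest among the called genes. Without array 2 the changes of Nxpe2, Nxpe4, Rasl11b, Mctp1 and Fastkd3 were -1.36, -1.47, -1.30, -1.34 and -1.21.

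Among the genes that rose, several encode proteins of granulocytes, while other such genes went the other way. Of 20 eosinophil, basophil and mast cell genes measured, 14 changed above 0 and 6 below. For 20 late neutrophil granule genes the counts were 13 and 7. Mcpt8, a serine protease of basophils, read 26.4, 41.7 and 22.9 on the wild-type arrays and 156, 141 and 151 on the deficient arrays. It rose 5.08-fold, by 2.34 ± 0.21 (limma adjusted p = 0.0019), and by 2.60 ± 0.12 without array 2. Ear3, an eosinophil-associated ribonuclease, read 94.01, 159.6 and 105 on the wild-type arrays and 396, 354 and 372 on the deficient arrays, and the near copies of this family could share its signal. Prg3, an eosinophil granule protein, read 2.77, 1.62 and 1.07 against 7.38, 9.13 and 8.50, wild type against deficient, and with only 2 of the 6 arrays above the background limit no fold is given. Fcnb, the lectin ficolin-B of myeloid precursors, read 15.2, 9.90 and 21.2 on the wild-type arrays and 69.99, 63.7 and 75.2 on the deficient arrays, and Camp, the antimicrobial peptide cathelicidin, 204, 190.0 and 205 on the wild-type arrays and 439, 385 and 442 on the deficient arrays. Each of these genes was higher on every deficient array, by 2.24 for Fcnb and 1.08 for Camp. Without array 2 the rises were 1.91 for Ear3, 1.96 for Fcnb and 1.04 for Camp.

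Sik1, a salt-inducible kinase that restrains CREB co-activators, read 43.2, 20.9 and 44.1 on the wild-type arrays and 289, 375 and 366 on the deficient arrays. The rise was 10.00-fold (3.32 ± 0.29, limma adjusted p = 0.00162, and 2.97 without array 2), while its other kept probe set changed by 0.09. Lmna, which encodes the nuclear lamins A and C, read 443, 278 and 321 on the wild-type arrays and 1089, 1064 and 1096 on the deficient arrays. Another Lmna probe set read 100.3, 36.5 and 55.9 on the wild-type and 268, 252 and 262 on the deficient arrays, also without overlap. A further one, well above background, showed no rise. It read 50.9, 54.4 and 51.2 on the wild-type and 61.5, 42.7 and 56.3 on the deficient arrays, a change of 0.02. The remaining kept one, which was dim, changed by 0.62. Probe sets of both genes therefore disagreed. The rise is that of the probe set used for Sik1, and of the first pair given for Lmna. Cd244a, the SLAM family receptor 2B4 of NK cells and committed progenitors, read 281, 385 and 324 on the wild-type arrays and 769.6, 872 and 755 on the deficient arrays, a 2.44-fold rise. Lta4h, the last enzyme of leukotriene B4 synthesis, read 77.8, 81.7 and 79.2 on the wild-type arrays and 175, 143 and 140.0 on the deficient arrays, while its other probe set changed by -0.20. Xcl1, the chemokine lymphotactin of T and NK cells, read 1.84, 1.16 and 1.07 on the wild-type arrays and 19.2, 13.2 and 11.1 on the deficient arrays, at least 1.69-fold higher. Without array 2 the rises were 1.51 for Lmna, 1.39 for Cd244a and 0.95 for Lta4h.

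An immunoglobulin kappa transcript, listed as Igk-V21, rose as well. It read 13.1, 1.32 and 25.99 on the wild-type arrays and 427, 457 and 403 on the deficient arrays. The 3 deficient arrays agreed closely and the wild-type arrays did not, with array 2 at background, and the change was 5.81 ± 0.84 and 4.54 ± 0.25 without it. The probe set paired with the microRNA gene Mir1931 read 33.4, 13.5 and 40.4 on the wild-type arrays and 681, 492 and 632 on the deficient arrays. All deficient arrays were high, by 22.6-fold (4.50 ± 0.35, limma adjusted p = 9.36e-04, and 4.01 without array 2). Such a probe set reads a longer transcript of the locus, and mature microRNA was not measured. The mature product that RefSeq (GRCm38.p6) lists for this gene, at chr10:93162879-93162900 on the plus strand, is shown to identify it, with the seed (bases 2 to 8) in capitals.
mmu-miR-1931: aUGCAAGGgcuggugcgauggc

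The other genes that rose have roles outside blood or broad ones. Ddx4, the germ cell RNA helicase Vasa, read 44.8, 39.5 and 51.3 on the wild-type arrays and 186, 183 and 205 on the deficient arrays. Cmah, which hydroxylates sialic acid, read 11.7, 21.9 and 12.3 on the wild-type arrays and 55.5, 40.2 and 44.6 on the deficient arrays (1.66, and 1.96 without array 2). Another kept Cmah probe set was higher on every deficient array but below background on all wild-type arrays, so no size is given. The remaining kept one overlapped, with 9.99, 8.95 and 7.93 on the wild-type and 8.85, 8.93 and 13.5 on the deficient arrays. Trim12a, of an antiviral TRIM family with close copies in the genome, read 1.41, 1.62 and 4.04 on the wild-type arrays and 44.9, 70.8 and 52.9 on the deficient arrays. By this probe set it was at least 6.63-fold higher. Its other kept probe set, which was dim, overlapped and changed by 1.21, and by 0.41 without array 2. The bound is therefore that of the probe set used. Ddx4, Trim12a and Ang were called with all arrays only, at limma adjusted p values of 0.0533, 0.0628 and 0.0533 without array 2. Cyp7a1, the rate-limiting enzyme of bile acid synthesis, read 1.66, 0.883 and 1.16 against 3.38, 4.94 and 6.73, below the background limit on all 6 arrays. The phosphatase gene Ppm1j read 0.983, 1.48 and 1.59 against 6.19, 6.88 and 12.4, above it on 2 deficient arrays only. Neither of the last pair is given a fold.

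Without array 2, a further 90 genes were called, 54 higher and 36 lower. For 42 of the 90, array 2 lay inside the range of the deficient arrays or beyond it. In 48 the 3 wild-type arrays did not overlap the deficient arrays even with array 2, and 84 had the same sign in both fits. The plot of both fits shows where the changes differed.

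**Figure D2:**
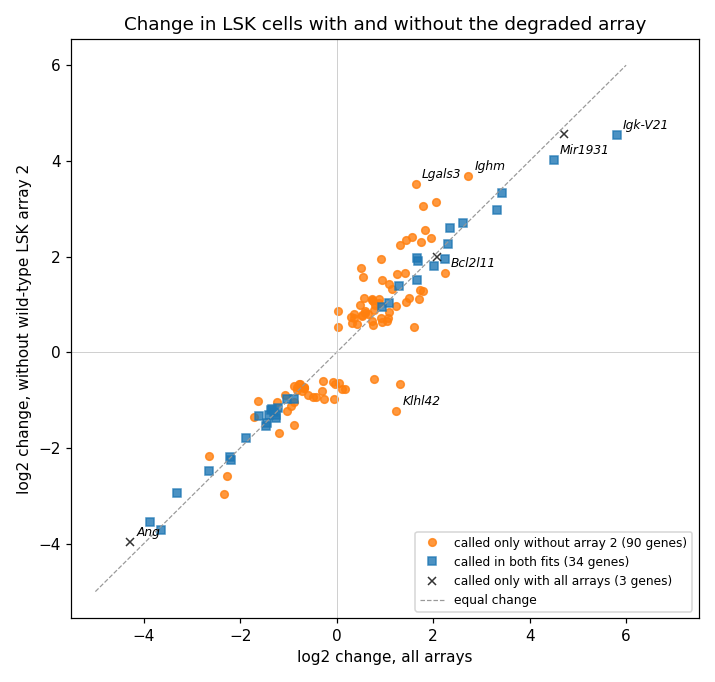
Each point is a gene called in either fit, by its log2 change with all arrays (x axis) and without wild-type array 2 (y axis), and the dashed line marks equal change. Squares are the 34 genes called in both fits, crosses the 3 called with all arrays only and circles the 90 called without array 2 only; Klhl42 lies at 1.24 on the x axis and -1.22 on the y axis.

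The clearest of the added genes was Bcl2l11, which encodes the pro-apoptotic BH3-only protein Bim, a textbook FoxO target. It read 338, 104 and 333 on the wild-type arrays and 1106, 1039 and 1062 on the deficient arrays. All deficient arrays were high, and with array 2 the lowest of all the change was 2.24 ± 0.38 (limma adjusted p = 0.0609). Without it the change was 1.65 ± 0.09 (limma adjusted p = 1.74e-04). An equally bright Bcl2l11 probe set read 294, 268 and 151 on the wild-type and 327, 384 and 520 on the deficient arrays. It changed by 0.82, and by 0.93 without array 2, and was not called in either fit. The other kept probe sets, all dim, changed by 2.04, 1.16 and 1.59. The direction was thus shared, while the size and the call are those of the probe set used. Pmaip1, the BH3-only protein Noxa, read 119, 27.2 and 73.9 on the wild-type arrays and 188, 186 and 238 on the deficient arrays, a rise of 1.11 ± 0.20 without array 2 (limma adjusted p = 0.0484).

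Genes that fell without array 2 included growth and cell cycle regulators. Igf1r, the receptor for insulin-like growth factor 1, read 1585, 358 and 1559 on the wild-type arrays and 1027, 959.6 and 1002 on the deficient arrays. Array 2 was the lowest array and arrays 1 and 3 the highest, so the change was 0.05 ± 0.47 with array 2 and -0.64 ± 0.09 without it. Txnip, the thioredoxin-interacting protein, read 2177, 623 and 2441 on the wild-type arrays and 1474, 1418 and 1464 on the deficient arrays, in the same arrangement, with a change of -0.65 ± 0.10 without array 2. Ccnd3, the G1 cyclin D3, read 111, 93.9 and 99.7 on the wild-type arrays and 61.2, 64.9 and 63.5 on the deficient arrays, and here the genotypes did not overlap with array 2 either. Its change was -0.74 ± 0.11 without array 2. Mycn, the N-Myc oncogene of stem and progenitor cells, read 638, 328 and 641 on the wild-type arrays and 374, 295 and 355 on the deficient arrays, a change of -0.90 ± 0.14 without array 2, which itself lay among the deficient arrays. Gfi1, a zinc finger repressor that restrains stem cell cycling and directs granulocyte fate, read 156, 107 and 138 on the wild-type arrays and 72.6, 65.1 and 77.5 on the deficient arrays, a change of -1.04 ± 0.11 without array 2 (limma adjusted p = 0.00629).

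**Figure D3:**
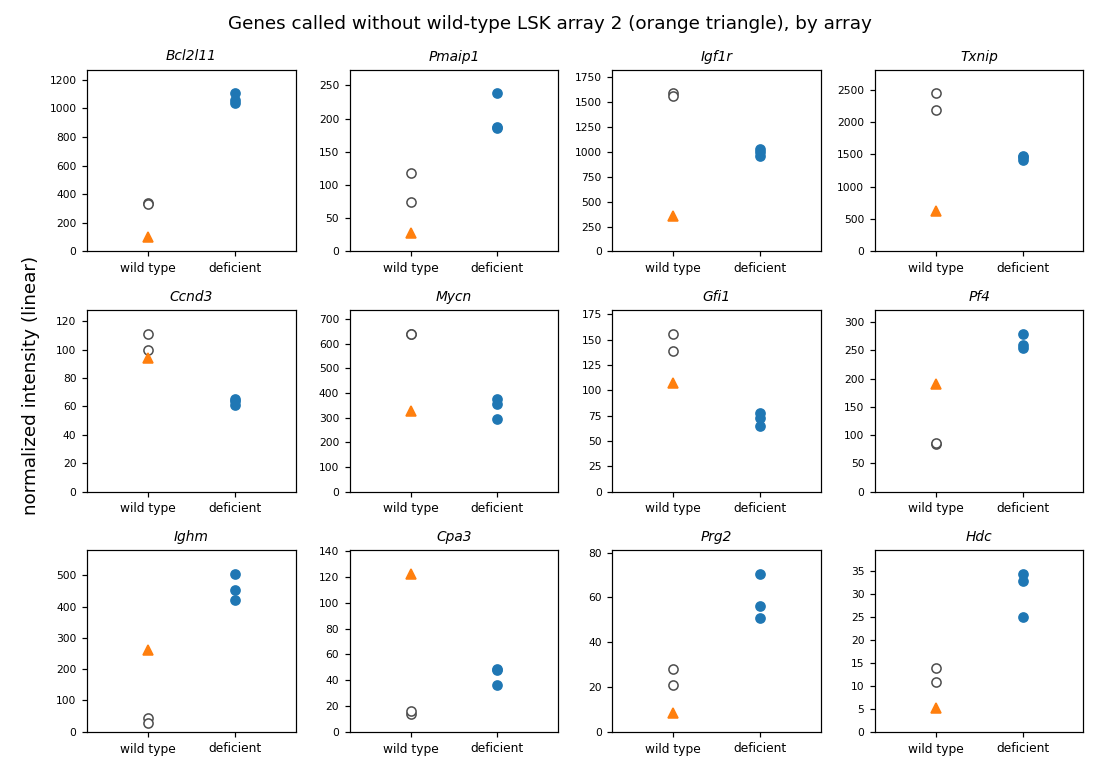
Linear normalized intensity of 12 genes called without wild-type LSK array 2, 1 point per array, with wild-type arrays 1 and 3 as open circles, array 2 as a triangle and deficient arrays as filled circles. Array 2 lies below every other array for Bcl2l11, Pmaip1, Igf1r, Txnip, Prg2 and Hdc, and above every other array for Cpa3.

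Further genes called higher without array 2 encode blood cell products. Pf4, the platelet chemokine platelet factor 4, read 84.3, 190.2 and 86.1 on the wild-type arrays and 254, 260.4 and 279.8 on the deficient arrays, a rise of 1.64 ± 0.13. Ighm, the immunoglobulin mu heavy chain, read 43.9, 262 and 28.8 on the wild-type arrays and 452, 505 and 422 on the deficient arrays by the probe set used, a change of 3.68 ± 0.23. Other Ighm probe sets disagreed. The probe set nearest in pattern changed by 2.10 without array 2, while 5 others were lower on every deficient array, by -1.94, -2.54, -2.36, -1.75 and -1.64 without array 2 and none of them called. The first of these read 411, 1362 and 377 against 100.3, 103 and 103, so no direction is given for Ighm. Vcam1, an adhesion molecule of macrophages and stroma, read 9.90, 16.6 and 5.04 on the wild-type arrays and 44.7, 28.9 and 37.2 on the deficient arrays, a rise of 2.38 ± 0.29.

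By the size of the change without array 2, the other genes named were mostly dim. Lgals3, Ms4a2, Hopx, Foxp2, Parvb, 1700052I22Rik, Sez6l, Sh2d4a, Mei4 and Mymk were called higher, and no size is given. Of these, only Lgals3, Ms4a2 and Mei4 were above the background limit on all 3 deficient arrays, Mymk was on none, and none of the genes was on wild-type arrays 1 and 3. Among the genes that fell, the mitochondrial calcium uniporter regulator gene Mcur1 read 409.5, 241 and 340.2 on the wild-type arrays and 150.5, 167 and 161 on the deficient arrays, a change of -1.23 ± 0.12. Mmrn1, the platelet and stem cell protein multimerin, read 414, 294 and 439.7 on the wild-type arrays and 227, 187 and 176 on the deficient arrays, also with no overlap. Castor2, of a family of mTORC1 regulators, read 111, 34.5 and 80.00 on the wild-type arrays and 26.6, 27.8 and 34.8 on the deficient arrays, and array 2 lay near the deficient arrays. Tgds, Zfp691, Dad1 and Tspan33 changed by -1.52, -1.34, -1.01 and -1.03 without array 2, while a further Dad1 probe set changed by 0.06. Klhl42 read 208, 1.16 and 176 on the wild-type arrays and 98.1, 80.7 and 69.9 on the deficient arrays, and array 2, at background, turned its direction. Tac2, 1810010K12Rik and Mfsd9 were called lower and were above the background limit on no deficient array. Mfsd9 was above it on all wild-type arrays and was at least 2.05-fold lower with all arrays, and no size is given for Tac2 and 1810010K12Rik.

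Promoters of the called genes were searched for the FoxO core GTAAACA, on both strands (TGTTTAC on the other), in the window from 250 bases before to 50 after the gene start. RefSeq promoters (GRCm38.p6) were matched for 29 of the 37 called genes, and none held the core. Of the 68 matched promoters among the 90 genes called without array 2 only, 5 held it (7.35%), against 3.13% of the promoters of genes tested and 3.65% of all promoters in the table. These 5 are shown because Bcl2l11, Ccnd3 and Txnip are on the list of known FoxO targets or of G1 cyclins described here. The core is in capitals, with up to 20 bases on either side, and a match is a description of the letters and not of binding.
Bcl2l11: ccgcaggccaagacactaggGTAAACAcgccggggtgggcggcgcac
Txnip: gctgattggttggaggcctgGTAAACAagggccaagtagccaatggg
Ccnd3: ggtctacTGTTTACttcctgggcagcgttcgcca
Pcgf5: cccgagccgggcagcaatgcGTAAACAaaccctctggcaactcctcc
Sgms2: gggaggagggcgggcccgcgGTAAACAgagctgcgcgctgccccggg

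The Bcl2l11 stretch is chr2:128125791-128125837 on the plus strand, with the core 227 bases before the gene start. That of Txnip is chr3:96557816-96557862 on the plus strand, 121 bases before, and that of Ccnd3 chr17:47504801-47504834 on the plus strand, 243 bases before. Those of Pcgf5 (chr19:36348258-36348304, plus strand) and Sgms2 (chr3:131490291-131490337, minus strand) place it 51 and 87 bases before. Bcl2l11 rose in FoxO-deficient cells while Txnip and Ccnd3 fell, so the genes that share the core did not share a direction. Pcgf5, a Polycomb subunit gene, and Sgms2, a sphingomyelin synthase gene, rose by 0.52 and 1.05 without array 2; they are named here for the match.

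The gene lists, 31 in all with 753 measured genes, are described by counts and medians. The median change of all genes tested was -0.04 and -0.01 without array 2. Deficient arrays lay wholly above the wild type for 7.77% of all genes and wholly below for 9.06%. Of all genes tested, 0.269% were called, and 0.903% without array 2. The absence of a call from a short list is therefore no result about its members. The list of stem cell and multipotent progenitor genes had a median below 0 under every setting tried. Of its 41 measured members, Tek and Sult1a1 fell, Txnip fell without array 2, and none rose. Another 12 also lay wholly below the wild type, so that 14 did in all (34.1%) and 0 lay above. The median was -0.39, and -0.27 without array 2. Slamf1, the stem cell marker CD150, read 85.05, 224 and 85.01 on the wild-type arrays and 45.6, 46.1 and 49.7 on the deficient arrays, a change of -1.32 ± 0.36 that was not called (limma adjusted p = 0.228). Esam, an adhesion molecule of stem cells, read 118, 187 and 85.8 on the wild-type arrays and 54.9, 42.2 and 34.7 on the deficient arrays (-1.52 ± 0.37, limma adjusted p = 0.165). The genotypes did not overlap for either gene. The homeobox gene Meis1 read 198, 206 and 204 on the wild-type arrays and 123, 155 and 109.7 on the deficient arrays, and the chromatin reader gene Mllt3 426, 529 and 326 on the wild-type arrays and 257, 288 and 272 on the deficient arrays, with changes of -0.66 and -0.62 that were not called.

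Hox genes and their partners had no called member among 18, with a median of -0.34 and -0.39 without array 2. None lay above the wild type, and 5 lay below. Pbx3 read 203, 255 and 203 on the wild-type arrays and 109, 115 and 127 on the deficient arrays, a change of -0.91 ± 0.17 (limma adjusted p = 0.0913, and 0.0533 without array 2). Hoxa5 read 133, 289 and 150.3 on the wild-type arrays and 83.2, 70.8 and 85.3 on the deficient arrays, with array 2 the highest.

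**Figure D4:**
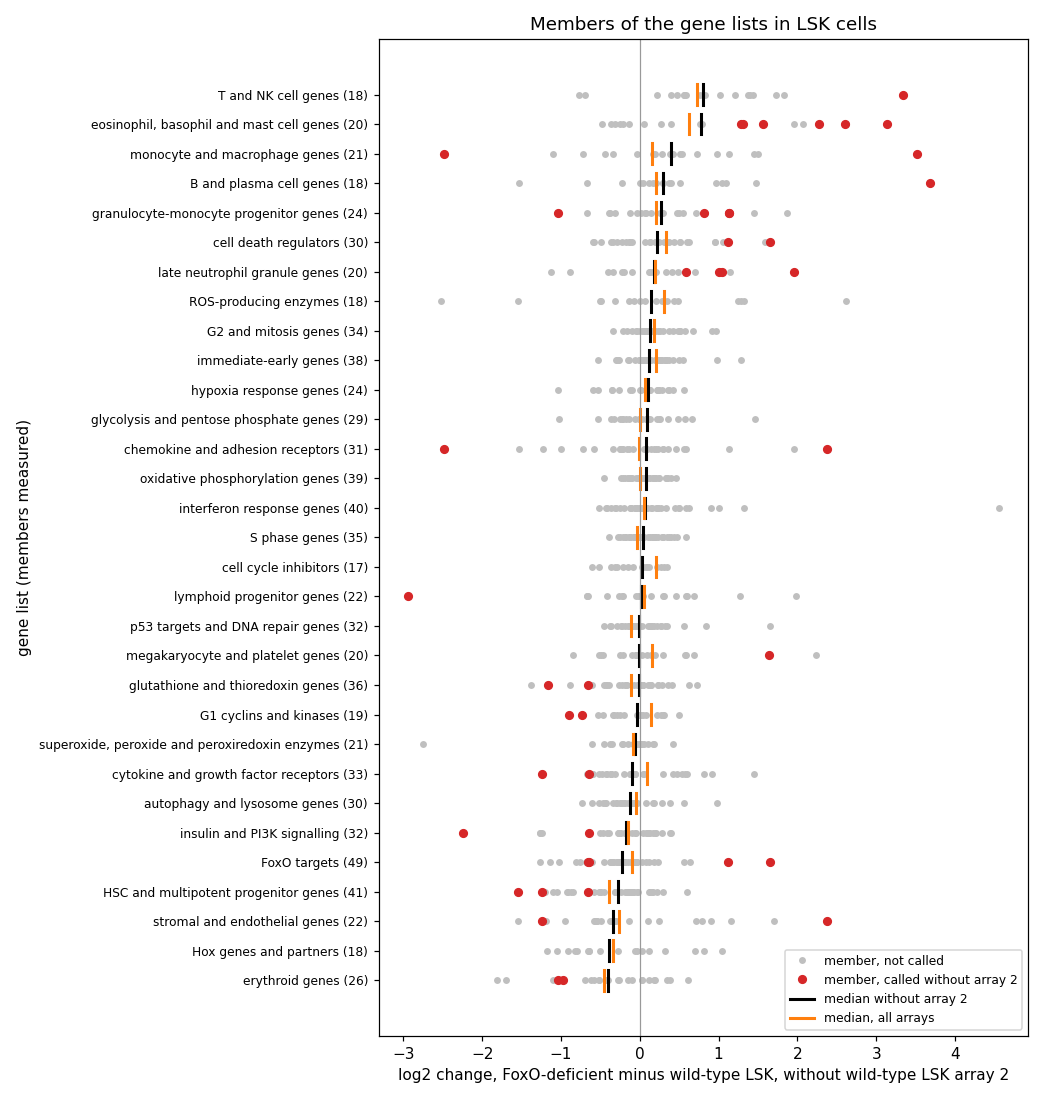
Each point is a measured member of a gene list, placed by its log2 change in LSK cells without wild-type array 2, and red points are called members. Black bars mark the list median without array 2 and orange bars the median with all arrays, which run from -0.46 for erythroid genes to 0.72 for T and NK cell genes.

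Erythroid genes also had a median below 0, while their summed level overlapped between genotypes when array 2 was counted. Of 26 measured, Car1 fell, the tetraspanin gene Tspan33 fell without array 2, none rose, and 9 (34.6%) lay wholly below the wild type. The median was -0.46, and -0.41 without array 2. The summed level was 6097 to 6151 on wild-type arrays 1 and 3, 4840.5 on wild-type array 2 and 5480.2 to 5715 on the deficient arrays. Tspan33 read 145, 194 and 113 on the wild-type arrays and 73.8, 61.9 and 52.9 on the deficient arrays, with no overlap. Ermap, a red cell adhesion protein gene, read 58.2, 58.9 and 58.1 on the wild-type arrays and 46.03, 45.6 and 26.01 on the deficient arrays, a change of -0.62 ± 0.21 that was not called. Rhag and Add2, a channel and a skeletal protein of the red cell membrane, were near background. Megakaryocyte genes showed no shared direction: of 20, Pf4 rose without array 2, 5 lay above and 4 below the wild type. Their median was 0.15, and -0.01 without array 2.

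The myeloid lists had medians above 0 with all arrays. Their called members are counted below, against 0.269% of all genes tested called with all arrays and 0.903% without array 2. Among 20 measured genes of eosinophils, basophils and mast cells, Mcpt8 and Prg3 rose, and 4 more rose without array 2, while none fell. The median was 0.62, and 0.78 without array 2, and it ran from 0.08 to 0.83 over the settings tried, lowest with an offset of 32. Cpa3, the mast cell carboxypeptidase, read 13.9, 123 and 16.1 on the wild-type arrays and 48.6, 36.4 and 48.2 on the deficient arrays, and array 2 was the highest of all arrays. Hdc, which makes histamine, read 10.95, 5.14 and 14.02 against 34.5, 25.04 and 32.9, and Prg2, the eosinophil major basic protein, 27.9, 8.34 and 20.8 against 70.6, 56.03 and 50.9, wild type against deficient. These rose by 1.31 ± 0.19 and 1.29 ± 0.18 without array 2, and neither overlapped with it. Ms4a2, the beta chain of the IgE receptor, read 1.92, 12.9 and 1.07 against 10.7, 12.2 and 14.8, and only array 2 of the wild type was above background. Fcer1a, its alpha chain, read 4.31, 1.62 and 10.1 against 20.2, 23.6 and 43.4, which was not called without array 2 (limma adjusted p = 0.0551). The summed level of the list was 4433 to 4509 on wild-type arrays 1 and 3, 2843 on wild-type array 2 and 3925 to 4108 on the deficient arrays, so the sum, which its brightest members set, was lower in the deficient arrays than on arrays 1 and 3. The part of such cells in the other results was not tested.

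Among 20 late neutrophil granule genes, Camp and Fcnb rose, Chil3 and S100a8 rose without array 2, and none was called lower. The median was 0.19, and 0.18 without array 2, while 5 (25%) lay wholly above the wild type and 3 (15%) below. S100a8, a calprotectin subunit, read 2125, 3295 and 2457 on the wild-type arrays and 3470.3, 3322 and 3563 on the deficient arrays, and its partner S100a9 2699.7, 3104 and 2859.7 on the wild-type arrays and 3496, 3566 and 3489 on the deficient arrays. Both were higher on every deficient array than on any wild-type array, and S100a9 was not called (limma adjusted p = 0.108 without array 2). Chil3, a chitinase-like protein of myeloid cells, read 186, 543 and 183 on the wild-type arrays and 396, 350.1 and 362 on the deficient arrays, with array 2 the highest. Mmp8 and Mmp9, the neutrophil metalloproteinases, lay below the wild type on every deficient array, with changes of -1.17 and -1.42 that were not called. The summed level was 8333 to 8692 on wild-type arrays 1 and 3, 10825 on wild-type array 2 and 10922 to 11294 on the deficient arrays.

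Genes of granulocyte-monocyte progenitors held no called member with all arrays. Without array 2, Ctsg, Cst7 and Igsf6 rose and Gfi1 fell, of 24. Ctsg, the granule protease cathepsin G, read 568, 1004 and 651 on the wild-type arrays and 1134, 1184 and 933 on the deficient arrays, and Cst7, an inhibitor of cysteine proteases, 92.3, 49.8 and 132 on the wild-type arrays and 237, 281 and 211 on the deficient arrays. They rose by 0.82 ± 0.12 and 1.13 ± 0.17 without array 2, and array 2 overlapped the deficient arrays for Ctsg and exceeded them for Igsf6. Elane, neutrophil elastase, read 111, 68.7 and 115 on the wild-type arrays and 182, 252 and 174 on the deficient arrays, without overlap and not called (limma adjusted p = 0.129). The summed level was 9381 to 9796 on wild-type arrays 1 and 3, 11098 on wild-type array 2 and 10897 to 11461 on the deficient arrays. Among 21 monocyte genes, Ccr2 fell and Lgals3 rose without array 2, with a median of 0.16 that ran from -0.11 to 0.41 over the settings tried. Their summed level was 1405 to 1556 on wild-type arrays 1 and 3, 2633 on wild-type array 2 and 1748 to 1940.3 on the deficient arrays.

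The called members of the lymphoid lists were Igll1, Xcl1 and, without array 2, Ighm. Igll1 fell among 22 genes of lymphoid progenitors, whose median was 0.06 and 0.02 without array 2. Flt3, the receptor that marks multipotent progenitors with lymphoid potential, read 185, 56.5 and 146 on the wild-type arrays and 269, 266 and 213 on the deficient arrays, higher on all deficient arrays and not called (1.11 ± 0.38, limma adjusted p = 0.339). Ighm was the only called gene of 18 genes of B and plasma cells, and only without array 2. Igha, the IgA heavy chain, read 581, 755 and 694 on the wild-type arrays and 1401, 1407 and 1303 on the deficient arrays, and Jchain, the joining chain, 604, 778 and 557 on the wild-type arrays and 1229.8, 1123 and 1251 on the deficient arrays. Both were higher on each deficient array and not called. The summed level of this list was 3034 to 3199 on wild-type arrays 1 and 3, 4786 on wild-type array 2 and 5037 to 5131 on the deficient arrays. Among 18 genes of T and NK cells Xcl1 rose, and the list's median was 0.72, with 17 members changed above 0. The median ran from 0.11 to 0.86 over the settings tried, lowest with an offset of 32. Nkg7, a granule protein of cytotoxic and myeloid cells, read 692, 254 and 682 against 956, 1085 and 837, and the co-receptor gene Cd28 40.3, 14.6 and 45.5 against 105, 117 and 112. The summed level was 864 to 902 on wild-type arrays 1 and 3, 621 on wild-type array 2 and 1193 to 1452 on the deficient arrays, and the part of these cell types in the results was not tested.

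In the list of stromal and endothelial genes Tek fell and Vcam1 rose without array 2, of 22. Col1a2, a collagen chain, read 57.6, 154 and 50.3 on the wild-type arrays and 26.7, 17.4 and 13.6 on the deficient arrays, a change of -2.05 ± 0.42 that was not called (limma adjusted p = 0.103). Sparc, a matrix protein also made by megakaryocytes, read 27.1, 74.5 and 35.8 on the wild-type arrays and 103, 125 and 80.5 on the deficient arrays. The genotypes overlapped for neither, and they differed in direction. The summed level was 1006 to 1072 on wild-type arrays 1 and 3, 1265 on wild-type array 2 and 717 to 759 on the deficient arrays.

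Of the genes of reactive oxygen metabolism, which the study asked about, limma called Gstm2 in both fits and Txnip without array 2. With 0.269% of all genes tested called, and 0.903% without array 2, lists this short say little by their counts. Among 21 enzymes that remove superoxide and peroxide, limma called none with or without array 2, and the median was -0.09 (-0.19 to 0.03 over the settings tried). None lay wholly above the wild type and 4 lay below. Sesn1, a stress-induced sestrin, read 381, 530.1 and 411 on the wild-type arrays and 296, 341 and 282 on the deficient arrays, and Selenop, a selenium transport protein, 2587, 3727 and 2587 on the wild-type arrays and 2414, 2216 and 2353 on the deficient arrays. Both were lower on every deficient array, with changes of -0.52 ± 0.18 and -0.33 ± 0.17 that did not pass (limma adjusted p = 0.335 and 0.498). Sod3, the extracellular superoxide dismutase, read 10.95, 10.3 and 3.94 against 0.983, 1.12 and 0.883, above background on 1 array only. Msrb2, a methionine sulfoxide reductase, read 77.5, 109.5 and 93.3 on the wild-type arrays and 62.6, 64.9 and 73.3 on the deficient arrays, also without overlap and not called.

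Of 36 genes of the glutathione and thioredoxin systems, Gstm2 fell, Txnip fell without array 2, and none rose. The median was -0.11, and -0.02 without array 2, with 8 members wholly below and 3 wholly above the wild type. Other glutathione S-transferases were lower on all deficient arrays without being called. Gsta4 read 188, 384 and 241 on the wild-type arrays and 137, 144 and 138 on the deficient arrays (-0.89 ± 0.23), and Gstm5 261, 325 and 324 on the wild-type arrays and 218, 227 and 206 on the deficient arrays (-0.48 ± 0.15). Srxn1, which repairs oxidised peroxiredoxins, went the other way, with 273, 150.5 and 226 on the wild-type arrays and 386, 395 and 373 on the deficient arrays (0.87 ± 0.23, limma adjusted p = 0.196). Of 18 enzymes that produce reactive oxygen, none was called in either fit, and the median was 0.31, and 0.14 without array 2.

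Known FoxO targets gave calls only without array 2, and in both directions. With all arrays limma called none of 49, and without array 2 Bcl2l11 and Pmaip1 rose and Igf1r and Txnip fell. Their median was -0.09, and -0.23 without array 2, and the members with a change below 0 went from 27 to 40. Over all settings tried the median ran from -0.24 to 0.20, so its sign depended on the setting. Trp53inp1, a p53-induced autophagy protein gene, read 834, 1039 and 837 on the wild-type arrays and 721, 709 and 702 on the deficient arrays, and Bnip3, a mitophagy receptor gene, 292, 355 and 276 on the wild-type arrays and 216, 232 and 219 on the deficient arrays. Each was lower on all deficient arrays and was not called. Of 32 genes of insulin and PI3K signalling Foxo4 fell and Igf1r fell without array 2. Pik3cd, the delta catalytic subunit of PI3K, read 43.2, 98.9 and 42.4 on the wild-type arrays and 27.1, 33.5 and 36.5 on the deficient arrays, and Sgk1, a kinase that phosphorylates FoxO, 1161, 873 and 1149 on the wild-type arrays and 1445, 1338 and 1446 on the deficient arrays. The genotypes did not overlap for either, and neither was called.

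Cell death regulators had a median change above 0. Of 30, Bcl2l11 and Pmaip1 rose without array 2 and none fell, and 6 lay wholly above the wild type. The median was 0.34, and 0.22 without array 2. Mcl1, an anti-apoptotic Bcl-2 relative, read 2643, 1338 and 2664 on the wild-type arrays and 3038, 2979 and 3080.1 on the deficient arrays, and Xiap, a caspase inhibitor, 197, 164 and 164 on the wild-type arrays and 249, 238 and 282 on the deficient arrays. Both lay above the wild type on every deficient array and were not called (0.52 and 0.55). Casp8 and Fadd, of the death receptor pathway, read 131, 191 and 129.9 against 202, 232 and 173 and 52.9, 178 and 42.7 against 24.5, 33.2 and 39.3 and were not called.

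Cell cycle lists held calls only without array 2, where Ccnd3 and Mycn fell. Cdk6, the kinase partner of D cyclins, read 690.3, 582 and 715 on the wild-type arrays and 1037, 914 and 1029.8 on the deficient arrays, a change of 0.59 ± 0.15 that was not called (limma adjusted p = 0.185, and 0.0889 without array 2). The retinoblastoma gene Rb1 read 202, 112 and 189 on the wild-type arrays and 258, 241 and 226 on the deficient arrays, and its relative Rbl1 419, 392 and 485 on the wild-type arrays and 534, 528 and 571 on the deficient arrays. These genes were all higher on each deficient array. None of 17 cell cycle inhibitors and none of 35 S phase genes was called by limma in either fit. The replication clamp gene Pcna read 2236, 1408 and 2125 on the wild-type arrays and 2525, 2508 and 2495 on the deficient arrays, with array 2 the lowest. Of 34 genes of G2 and mitosis 9 (26.5%) lay wholly above and none below the wild type, with a median of 0.17 and no call. Ect2, which drives cytokinesis, read 444, 496 and 431 on the wild-type arrays and 629, 606 and 730.0 on the deficient arrays, a change of 0.52 ± 0.15 (limma adjusted p = 0.238).

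Immediate-early genes, which cells switch on within minutes of a stimulus, held no called member of 38. Yet 16 (42.1%) lay wholly above the wild type and 3 below, with a median of 0.21 and 0.12 without array 2. Ptgs2, cyclooxygenase 2, read 380.2, 764 and 785 on the wild-type arrays and 1381, 1279 and 1373 on the deficient arrays, and the chemokine gene Cxcl2 556, 590.0 and 697 on the wild-type arrays and 1238, 1137 and 1329 on the deficient arrays. Both were higher on all deficient arrays, by 1.14 ± 0.46 and 1.01 ± 0.35. Junb read 41.1, 11.8 and 26.04 on the wild-type arrays and 48.4, 52.3 and 42.8 on the deficient arrays, again without overlap and not called (1.04 ± 0.40).

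Interferon response genes are of interest because Mx-Cre is switched on through interferon signalling. Trim12a was the only called gene of 40, and only with all arrays, and the median was 0.06, and 0.07 without array 2. Trim30d, a paralogue in the same family, read 108, 40.1 and 123 on the wild-type arrays and 213, 233 and 251 on the deficient arrays, a change of 1.52 ± 0.51 that was not called. Lists of glycolysis, oxidative phosphorylation, hypoxia, autophagy and p53 targets held no called gene in either fit. Hk2, the hexokinase of growing cells, read 809.6, 186 and 724 on the wild-type arrays and 1070.5, 1130.1 and 1024 on the deficient arrays, and Hif1a, the hypoxia factor, 848, 610.2 and 826 on the wild-type arrays and 1039, 999 and 1025 on the deficient arrays. Array 2 was the lowest array for both. Pgd, of the pentose phosphate pathway, read 1688, 2273 and 1729 on the wild-type arrays and 1201, 1291 and 1042 on the deficient arrays, lower on all deficient arrays and not called (-0.68 ± 0.18).

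Of the receptors, Ccr2 fell and Vcam1 rose without array 2 among 31 chemokine and adhesion receptors, and Tek and, without array 2, Igf1r fell among 33 cytokine and growth factor receptors. S1pr4, a sphingosine 1-phosphate receptor, read 45.5, 51.1 and 45.8 on the wild-type arrays and 35.8, 17.2 and 19.4 on the deficient arrays, and Ccr9, a homing receptor of lymphoid progenitors, 23.5, 9.90 and 29.98 on the wild-type arrays and 53.7, 36.1 and 32.8 on the deficient arrays. Il6st, the signalling chain gp130 of the IL-6 family, read 156, 155 and 139 on the wild-type arrays and 84.5, 109 and 97.05 on the deficient arrays, and Tgfbr2, a TGF-beta receptor, 387, 486 and 348 on the wild-type arrays and 295, 295 and 267 on the deficient arrays. These genes did not overlap between genotypes and were not called, with changes of -1.05, 1.06, -0.64 and -0.50 in that order.

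The FoxO effect was then set against that in myeloid progenitors. Of the 37 genes called in LSK cells, 29 had the same sign in myeloid progenitors and 36 had a smaller change there, where the genes had been picked for their change in LSK cells. The share of all genes with the same sign is not given here, so the 29 are a count and no measure of agreement. Xcl1 and Igk-V21 were above background on no myeloid array, where a sign means little. In myeloid progenitors 253 genes were called (1.84%). Arsk, B3galt6, Camp, Cd244a, Foxo4, Gdpd3, Mir1931, Tek and Trim12a were called there in the same direction, but Arsk's other probe set was higher there. For instance, Gdpd3 read 856, 698 and 809.6 in wild-type and 223, 234 and 238 in FoxO-deficient myeloid progenitors, a change of -1.76 ± 0.14, and Mir1931 read 15.3, 17.6 and 17.8 in wild-type and 109, 116 and 97.97 in FoxO-deficient myeloid progenitors, a change of 2.67 ± 0.35. Tek read 108, 82.2 and 84.4 in wild-type and 42.8, 41.1 and 42.2 in FoxO-deficient myeloid progenitors, lower overall than in LSK cells and again reduced by deficiency. With all arrays the difference between the effects was called for none of these 9, which does not show that they were equal. Without array 2 it was called for Mir1931, whose rise was larger in LSK cells (limma adjusted p = 0.0188, and 0.173 with all arrays).

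The difference was itself tested in the same fit and was called for 118 genes (0.859%), and for 430 (3.13%) without array 2. Among the 37 genes it was called for 8, and for 14 without array 2, which added Ear3, Fcnb, Igk-V21, Mcpt8, Mir1931 and Rnase6. Sik1 read 24.1, 17.8 and 25.3 in wild-type and 30.8, 24.5 and 28.02 in FoxO-deficient myeloid progenitors, and the effects differed by 3.00 ± 0.41 (limma adjusted p = 0.00873). This is the pattern of the probe set used. The other Sik1 probe set changed by 0.09 in LSK cells. It fell in myeloid progenitors, with 34.0, 28.5 and 29.7 in wild-type and 10.3, 11.0 and 12.4 in FoxO-deficient cells. Xcl1 read 3.56, 3.52 and 1.86 in wild-type and 1.86, 2.36 and 2.12 in FoxO-deficient myeloid progenitors, all below background, against a rise in LSK cells. Ccr2 read 306, 321 and 317 in wild-type and 225, 201 and 202 in FoxO-deficient myeloid progenitors, a change of -0.59 ± 0.21 that was smaller than in LSK cells by a difference of -2.06 ± 0.29. A dimmer Ccr2 probe set fell in both cell types. It read 58.35, 69.7 and 77.1 in wild-type and 13.1, 18.1 and 23.6 in FoxO-deficient myeloid progenitors, and changed by -1.76 in LSK cells. The Ccr2 difference is therefore that of the probe set used. Nxpe2 and Rsl1 fell in LSK cells and changed by 0.24 and 0.01 in myeloid progenitors, and Igll1, below background on the deficient LSK arrays, read 18.97, 18.3 and 9.43 in wild-type and 18.3, 16.7 and 15.6 in FoxO-deficient myeloid progenitors.

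For Lmna and Ddx4 the effects were opposite and, with all arrays, called in each cell type. Lmna read 593, 429.7 and 442 in wild-type and 192, 145 and 225 in FoxO-deficient myeloid progenitors, a fall of 1.39 on the log2 scale against the rise in LSK cells (difference 3.06 ± 0.33, limma adjusted p = 0.00173). The Lmna probe set that changed by 0.02 in LSK cells also fell here, from 63.9, 66.3 and 58.4 to 12.1, 21.7 and 22.6. Ddx4 read 20.96, 20.01 and 17.5 in wild-type and 4.23, 10.01 and 3.56 in FoxO-deficient myeloid progenitors, where 1 deficient array was above background. By the probe sets used, the genotypes did not overlap in either cell type for these genes. Array 2 does not enter the myeloid values, and all 8 differences were called without it too, at limma adjusted p values of 0.00108 for Sik1 to 0.0266 for Igll1.

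**Figure D5:**
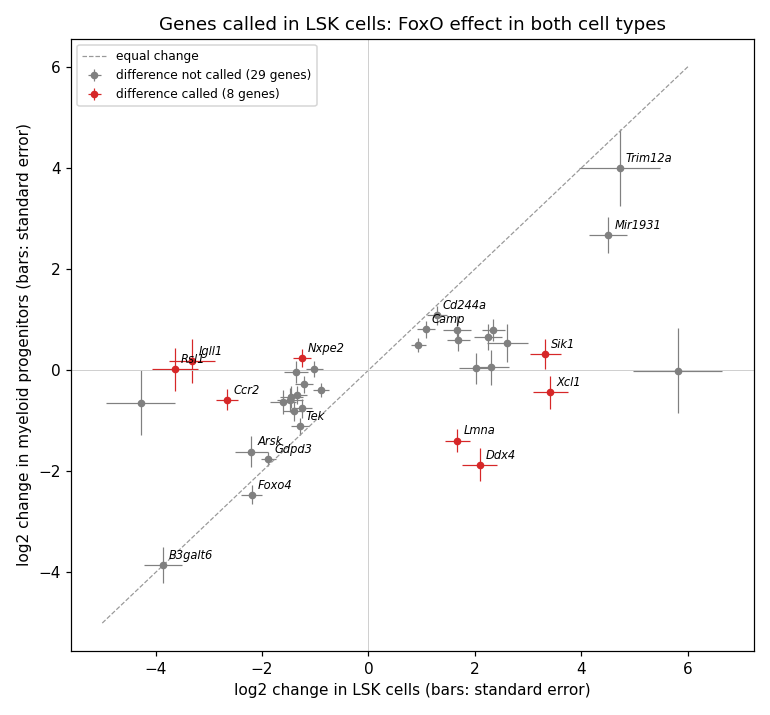
Each point is 1 of the 37 genes called in LSK cells, by its log2 change in LSK cells (x axis) and in myeloid progenitors (y axis), with bars of 1 standard error and a dashed line of equal change. Red points are the 8 genes whose effects differed past the test; Lmna and Ddx4 lie below 0 on the y axis and above 0 on the x axis.

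Some called genes lie beside each other in the genome, by the order of genes in RefSeq (GRCm38.p6). Cd244a and Cd48, which encode a receptor and its ligand in the SLAM family on chromosome 1, have 2 tested genes between them. Cd48 read 278, 147 and 273 on the wild-type and 439, 407 and 438 on the deficient arrays, higher on every deficient array and called without array 2. Nxpe4 and Nxpe2 on chromosome 9 are next to each other and both fell, and so are Prg2 and Prg3 on chromosome 2, which both rose, Prg2 without array 2 only. Mcpt8 and Ctsg on chromosome 14 adjoin each other as well, and Ctsg rose without array 2. Mir1931 and Lta4h on chromosome 10 have 1 tested gene between them and both rose. Arsk and Mctp1 on chromosome 13, and Sult1a1 and Gdpd3 on chromosome 7, fell as pairs with 1 and 3 tested genes between them. Ddx4 and Slc38a9 on chromosome 13 adjoin each other and moved in opposite directions, with Ddx4 higher and Slc38a9 lower by 0.88 without array 2 (chosen after its values were seen). How such pairs compare with neighbours in general was not tested.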

How the data were processed

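The 12 arrays each hold linear intensities of 45101 probe sets in a value table deposited by the authors; per the labels, RNA was amplified, biotin-labelled and hybridised, while the sources used here do not name the summarisation software. The offset of 0.6, the 10th percentile of all values, was added, log2 was taken and arrays were quantile normalized. Probe sets with 1 gene symbol in the platform annotation (34945; 932 had several, 9160 none and 64 were controls) were kept if above their array's 40th percentile on 3 arrays (31779), and the brightest one stood for each gene. Symbols were updated for 34741 probe sets through gene IDs. limma 3.58.1 in R 4.3.3 fitted 4 group means to all 12 arrays (8 residual degrees of freedom, 7 without array 2), two-sided, and was tested on simulated data.

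A fold is the ratio of group levels (antilogs of mean log2). It is a lower bound where only the brighter group exceeded the background limit, and no fold is given where too few arrays did. Named were all called genes, the 12 largest changes in each direction called only without array 2, called list members and up to 4 further members with the smallest p per list, and the FoxO genes; exceptions are marked. The members, lists and rule were chosen with earlier results of these data known. Alternatives covered scaling, offset, filter, arrays fitted, array weights, intensity trend, every kept probe set and leaving out each array. Gene names and promoters are RefSeq's (GRCm38.p6).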

Additional observations from a re-analysis of the deposited data

Results flagged for a closer look

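For 21 named genes the FoxO effect in LSK cells differed from that in myeloid progenitors by limma's test of the difference (adjusted p under 0.05 over all genes). The values below are log2 differences, LSK minus myeloid progenitors, and the cause of none was tested. Where a group was not above background they are fitted values and give no size: all wild-type LSK and all myeloid arrays for Xcl1, all deficient LSK arrays for Igll1, all wild-type myeloid arrays for Trim30d, all deficient myeloid arrays for Ptgs2, and 2 of the 3 for Cxcl2 and Ddx4. Of the genes called in LSK cells, the difference was -2.06 for Ccr2, 3.96 for Ddx4, -3.49 for Igll1, 3.06 for Lmna, -1.50 for Nxpe2, -3.65 for Rsl1, 3.00 for Sik1 and 3.86 for Xcl1. These are differences by the probe set used, and a further probe set of Ccr2, of Lmna and of Sik1 read otherwise, as given above.

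A set of 6 immediate-early and stress genes was called lower in FoxO-deficient myeloid progenitors and not called in LSK cells. Cxcl2 differed by 7.87, Ptgs2 by 6.39, Nfkbiz by 4.55, Btg2 by 3.80, Klf6 by 3.13 and Hspa1b by 2.41. Cxcl2 read 684, 692 and 727 in wild-type and 12, 4.64 and 3.94 in FoxO-deficient myeloid progenitors, and 556, 590.0 and 697 on the wild-type arrays and 1238, 1137 and 1329 on the deficient arrays in LSK cells. Sqstm1, the autophagy receptor p62, differed by 3.33, the BH3-only gene Pmaip1 by 3.96 and the kinase gene Sgk1 by 1.45. Plek, of platelets, differed by 1.17. Trim30d, an interferon-induced gene, differed by -3.93, and was called higher in myeloid progenitors. Gfi1 differed by -1.73, and it rose in myeloid progenitors, by 0.84 ± 0.17 (limma adjusted p = 0.0359). Il6st differed by -1.33.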

How the results depend on the processing

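The number of genes called in LSK cells, 37 (17 higher, 20 lower), depended on the settings, and so did the 118 genes whose effect differed from that in myeloid progenitors. Median scaling gave 22 calls (10 lower) and 72 differences. An offset of 8 gave 81 calls (46 higher, 35 lower), and an offset of 32 gave 169 (95 and 74) and 212 differences. A filter at the 60th percentile gave 93 calls (41 and 52) and 185 differences, and no filter 16 (7 and 9) and 75. Array weights gave 148 calls (85 and 63) and 440 differences. The LSK arrays alone gave 0 calls, 0 higher and 0 lower (limma; 892 genes at an unadjusted p under 0.05), and so did they without array 2 (1726). An intensity trend gave 39 calls and every kept probe set 47. Leaving out 1 array gave 10 to 124 calls, 5 to 69 higher and 5 to 55 lower, and 59 to 430 differences, with each highest value without wild-type array 2. The cause of these shifts was not tested.

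No called gene reversed under these alternatives. Of the genes called without array 2 only, Igf1r ran from -0.64 to 0.42 and Klhl42 from -1.22 to 2.53 as each array was left out, with the negative value without array 2 (0.05 and 1.24 with all arrays). No paired analysis was possible because no replicate number is shared between the genotypes. Array signal over background limits the dim genes, for which a bound or no size is given in the report, while plots show their fitted values.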
